A study of Volvox carteri with 4 samples.

Results

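Of the 16008 gene models counted in gonidial and somatic cells of *Volvox carteri*, 134 were abundant in somatic cells, scarce but detected in gonidia, and named on none of the study's 9 gene lists. They were selected on the measured values themselves. Counts were scaled to CPM (a gene's count divided by all counts of its library, times 1000000). A gene was a member where its mean somatic level was at least 300 CPM and at least 16 times its mean gonidial level, where at least 1 gonidial library held more than 3 of its reads, and where it was absent from the study's lists of VARL genes, genes of earlier studies, flagellar, basal body and transition zone genes, photosynthesis, carbon metabolism, nucleotide sugars, glycosyltransferases, extracellular matrix (ECM) and autophagy genes. The difference between cell-types within these genes is therefore how they were found and not a finding, and it is given below as a description only.

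All libraries came from strain Eve, a female line of *V. carteri* f. *nagariensis*, harvested as hatched adult spheroids at hour 42 of the 48-hour life cycle, which is hour 6 of the second light period and precedes gonidial cleavage. Gonidial cells, the large germ cells, were measured in 2 libraries, and somatic cells, the small flagellated cells of the spheroid surface, in 2 others. Each preparation pooled many spheroids from its own flasks and yielded only 1 of the cell-types, so no gonidial library shares a culture with a somatic library. Libraries were made from poly(A)-selected RNA and held between 10838222 (somatic 1) and 13104583 (somatic 2) assigned reads. The somatic marker genes were high in the libraries labelled somatic: *regA*, which keeps somatic cells from growing as germ cells do, had 1 and 0 reads in gonidia against 486 and 786 in somatic cells. The matrix glycoprotein gene *ssgA* had 33 and 40 against 63018 and 74766, and the putative flagellar dynein gene *dyhA* 12 and 17 against 7081 and 11705. Of 19 loci of cDNA clones described earlier as gonidial, 17 were higher in both gonidial libraries, and none was at 0 in somatic cells, where their summed level was 53851 and 43766 CPM against 87339 and 93034 CPM in gonidia. In bulk RNA of this kind, fewer cells of a type and less RNA per cell cannot be told apart.

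Somatic cells of *Volvox* are terminally differentiated. They beat the flagella that move the spheroid and secrete the glycoprotein matrix that fills most of its volume, and they do not divide again, whereas gonidia grow and then cleave into new spheroids. The flagella are built from axonemal proteins such as dynein arms, and the matrix from hydroxyproline-rich glycoproteins called pherophorins and from metalloproteases, and genes for both structures are known to be expressed in somatic cells. The sources used here give no symbol, protein or function for any of the 134, and they are named by their locus identifiers alone. An identifier such as Vocar.0070s0007 belongs to version 2.1 of the gene models and carries a scaffold (70) and a locus number in order along it (7). Such identifiers belong to 129 members. The other 5 have version 2.0 identifiers, which carry no position, and version 2.0 models made up 3.73% of the members and 1.36% of the 516 genes with at least 300 CPM in somatic cells. Of all gene models, 1761 are of version 2.0.

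The lists left most of this class of genes unnamed. Of the 516 gene models with a mean of at least 300 CPM in somatic cells, 208 were at least 16 times higher there than in gonidia, and 205 of these had more than 3 reads in a gonidial library. The 134 members were 65.4% of the 205, and the other 71 stood on a list. Of these 71, 53 came from the flagella list, which also holds genes of basal bodies and of the transition zone, and 16 from the ECM list, with 2 from the list of earlier studies and 2 from carbon metabolism, some on more than 1 list. None came from the VARL, photosynthesis, nucleotide sugar, glycosyltransferase or autophagy lists. Genes on a list thus made up 34.6% of the 205, against 4.05% of all gene models.

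The members held 15.0% of somatic library 1 and 16.1% of somatic library 2 (95% Clopper-Pearson intervals 14.995 to 15.04% and 16.06 to 16.10%, counting error only), and 0.199% and 0.184% of gonidial libraries 1 and 2. The 71 listed genes under the same limits held 6.94% and 7.93% of the somatic libraries and 0.0587% and 0.0519% of the gonidial libraries. Among the listed genes, those of the flagella list accounted for 2.98% and 3.52% of the somatic reads and those of the ECM list for 3.87% and 4.31%. The unlisted genes thus carried more somatic reads than both groups of listed genes together in each somatic library. The reads were unevenly spread over the members: the 12 with the most reads held 7.47% and 7.32% of the somatic libraries, the remaining 122 held 7.55% and 8.76%, and 14 members held more than 50% of all somatic reads of the set.

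**Figure D1:**
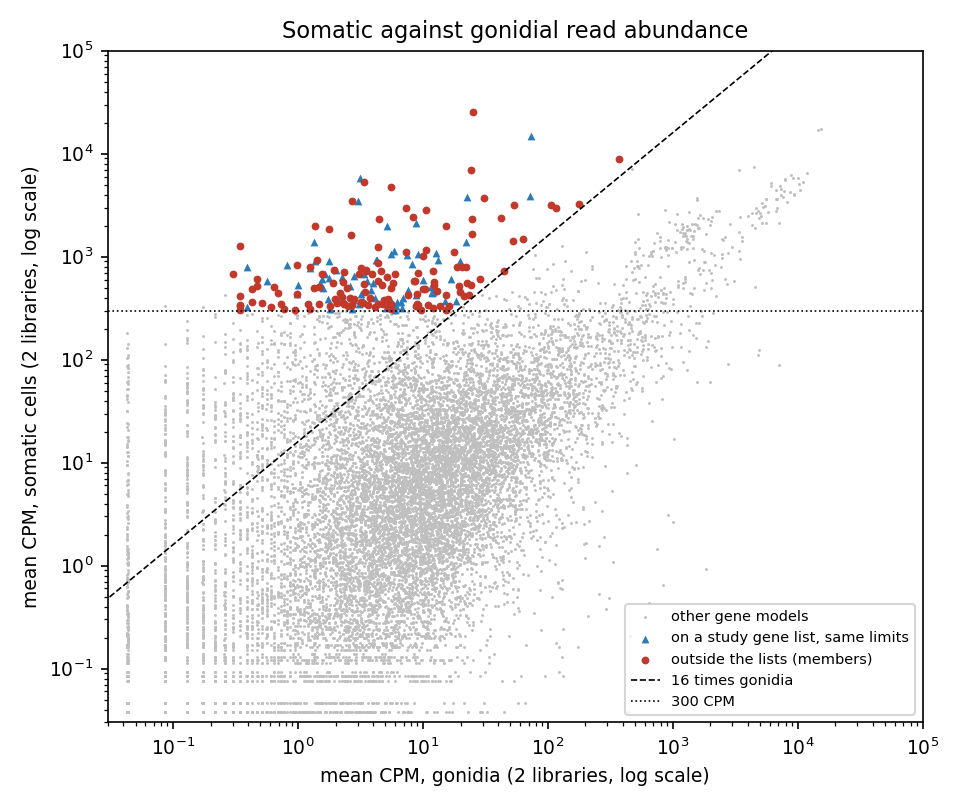
Mean CPM in somatic cells against mean CPM in gonidia, both on log scales, for gene models with reads in both cell-types (gray), the 71 listed genes within the limits (blue triangles) and the 134 members (red circles). The dotted line is 300 CPM and the dashed line 16 times the gonidial level; members and listed genes fill the same region, and the highest circle, at 25149 CPM, is Vocar.0070s0007.

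The most read of these genes, Vocar.0070s0007, had 302 and 278 reads in gonidial libraries 1 and 2 and 274730 and 326966 in somatic libraries 1 and 2. It alone made up 2.53% and 2.50% of the somatic reads, and its somatic level of 25149 ± 281 CPM (SD, n = 2) was 1007 times its gonidial level of 24.97 ± 1.56 CPM (SD, n = 2). No listed gene within the same limits reached it, the highest of them being at 14918 CPM. Since reads rise with the length of a transcript and the lengths of these gene models are not used here, the order of genes by CPM is an order of reads and not of transcript number.

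The next members by reads ranged from few to many reads in gonidia. Vocar.0007s0110 had 4567 and 4029 gonidial reads against 97137 and 115657 somatic reads, which is 24.03 times higher in CPM, and its 370 ± 34.2 CPM (SD, n = 2) in gonidia was the highest gonidial level of any member. Vocar.0032s0153 had 267 and 300 reads against 74152 and 92486, a ratio of 285. Vocar.0059s0039 had 41 and 37 reads against 65026 and 62002. Gonidia thus held 0.0626% of its somatic level, close to the 0.0545% of *ssgA*. Vocar.0009s0102 had 70 and 59 reads against 53896 and 60235 and a ratio of 862.

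Vocar.0015s0089 had 354 and 364 gonidial and 39176 and 49678 somatic reads (ratio 120), and Vocar.0030s0126 had 29 and 34 against 33656 and 51073 (ratio 1292). Of the members with about 3000 CPM in somatic cells, 4 kept more than 50 CPM in gonidia. Vocar.0030s0169 had 2365 and 1732 gonidial reads against 32078 and 47242, Vocar.0003s0105 had 660 and 587 against 28493 and 48687, Vocar.0057s0045 had 1248 and 1206 against 37505 and 37425, and Vocar.0007s0050 had 1310 and 1374 against 37919 and 32452. Their ratios were 18.6, 59.1, 29.9 and 25.9. By contrast, Vocar.0007s0404, with 35753 and 35414 somatic reads, had only 73 and 96 gonidial reads and a ratio of 413. For each of these 12 genes every somatic library was above every gonidial library, which the limits make all but certain.

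**Figure D2:**
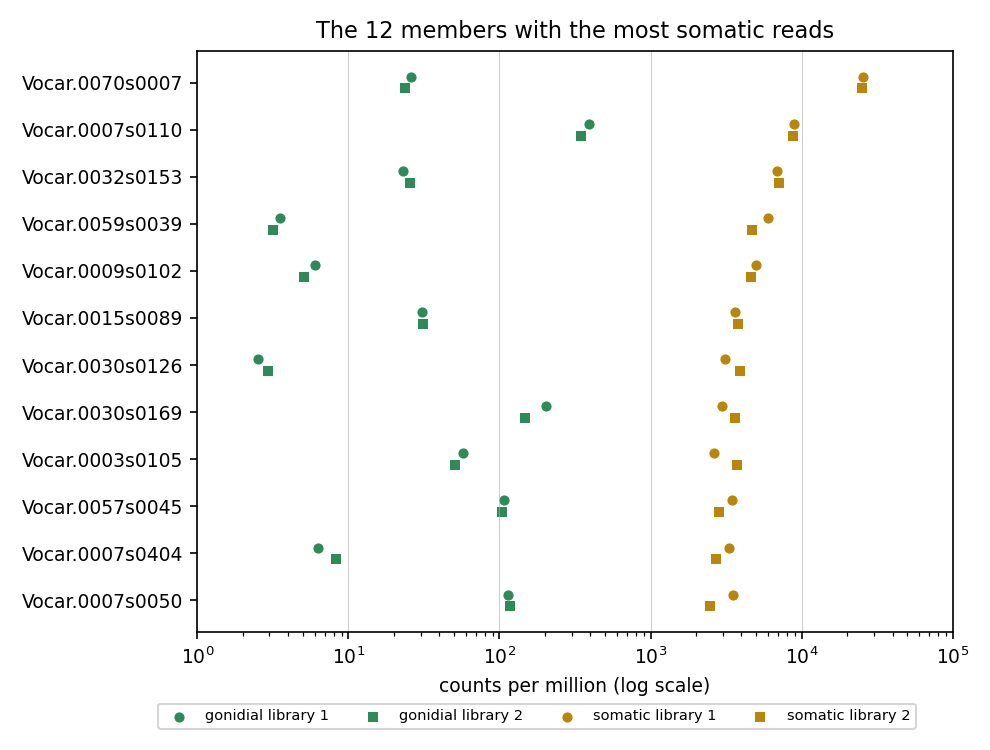
CPM on a log scale in each of the 4 libraries for the 12 members with the most somatic reads (green, gonidial; ochre, somatic; circles, library 1; squares, library 2). Somatic values lie close together for each gene, between 2476 and 25348 CPM, while gonidial levels run from a mean of 2.71 CPM for Vocar.0030s0126 to 370 CPM for Vocar.0007s0110.

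Over all 134 genes, the somatic mean ran from 302 to 25149 CPM with a median of 516, and 54 genes exceeded 600 CPM, 30 exceeded 1000 and 11 exceeded 3000. The gonidial mean ran from 0.302 to 370 CPM with a median of 4.74. The ratio of the means had a median of 128, with 25% of genes under 49.98 and 25% over 316, and it was at least 100 for 77 genes and at least 1000 for 11. The 71 listed genes had a median of 552 CPM in somatic cells, 4.18 CPM in gonidia and a ratio of 140, and 45 of them had a ratio of at least 100 and 6 of at least 1000. In the fit across 13350 genes with edgeR, all 134 members were called somatic-specific, that is, over 5-fold higher in somatic cells at an adjusted p under 0.05, as were 16.9% of all tested genes. On the log2 scale the members' fold changes had a median of 6.87, against -0.85 over all tested genes. Both somatic libraries were above both gonidial libraries for all 134 members and for 34.9% of tested genes. As the same contrast chose the members, nothing is read from these counts.

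The 6 highest ratios belonged to genes with between 2 and 41 reads in a gonidial library. Vocar.0046s0015 had 5 and 3 gonidial reads against 11777 and 18733 somatic reads. Its ratio of 3651 is the largest of the set, and with so few reads the 95% interval of the ratio of summed counts, 3701, ran from 1878 to 8573 (exact, counting error only). Vocar.0014s0253 had 5 and 2 against 7937 and 8310 (ratio 2265), Vocar.0041s0006 had 17 and 15 against 15979 and 32420 (1433), and Vocar.0059s0038 had 4 and 7 against 7548 and 6922 (1294). The intervals of these genes overlap, so they cannot be ranked by counting error alone. Vocar.0059s0039 (41 and 37 gonidial reads, ratio 1598) and Vocar.0030s0126 (29 and 34, ratio 1292) complete the 6 highest.

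The lowest ratios belonged to genes well read in gonidia. Vocar.0006s0063 had 504 and 532 gonidial reads against 6431 and 11431 and a ratio of 16.4. Vocar.0004s0134 had 299 and 241 against 3583 and 6799 (18.3), Vocar.0030s0169, given above, had a ratio of 18.6, Vocar.0001s1579 had 277 and 216 against 3903 and 6154 (19.5), Vocar.0014s0093 had 181 and 173 against 3209 and 4026 (19.8), and Vocar.0005s0391 had 213 and 161 against 3261 and 4767 (20.6). For all of these both gonidial libraries held more than 150 reads, far more than the 3 that a count of 0 allows.

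The gonidial reads of the members were not a fixed fraction of their somatic reads. The somatic markers stood at 0.0545% (*ssgA*), 0.0824% (*regA*, 1 read) and 0.161% (*dyhA*) of their somatic level in gonidia. Among the members the percent ran from 0.0274% to 6.08% with a median of 0.784%, and it was above that of *ssgA* for 132 of 134 and above that of *dyhA* for 112. The 2 below *ssgA* were Vocar.0046s0015 and Vocar.0014s0253. The 71 listed genes within the limits, *ssgA* and *dyhA* among them, ran from 0.0485% (Vocar.0016s0285) to 4.90% (Vocar.0005s0012). Of these, only Vocar.0016s0285 stood below *ssgA*. Their median ratio of somatic to gonidial CPM was 140, against 128 for the members. A percent above that of *ssgA* was thus not particular to the members. The percent is the inverse of the ratio that the rule limited, and the rule also required gonidial reads, so selection shaped these counts. Among genes left out for too few gonidial reads, Vocar.0006s0086 stood at 0.0529% and Vocar.0083s0016 at 0.0262%, below *ssgA*, and Vocar.0032s0089 at 0.0612%, above it. Both gonidial libraries held at least 10 reads for 117 members and at least 100 for 44, whereas 14 had fewer than 10 in each. The part of carried-over somatic RNA in the gonidial level of a single member was not tested.

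Agreement between libraries of a cell-type was only in part open to the rule, which used their means. Somatic library 2 over somatic library 1 had a median log2 ratio of 0.23 in CPM over the members, with 25% of genes under 0.04 and 25% over 0.41, and 103 of 134 members were above 0. All tested genes had a like median of 0.22 and a wider range, with 25% of genes under -0.16 and 25% over 0.60. No member differed by more than 2-fold between the somatic libraries, against 16.2% of all tested genes, most of which had far fewer reads, and 1.05% of the 382 other genes with at least 300 CPM in somatic cells. The median size of the log2 ratio was 0.29 for the members, 0.22 for those 382 genes and 0.39 for all tested genes. The listed ECM genes within the limits had a median log2 ratio of 0.43 (n = 16) and the listed flagella genes 0.18 (n = 53). Part of this shared offset is a matter of scaling, since with DESeq2's size factors the medians of members and all tested genes were 0.08 and 0.06. They were 0.15 and 0.13 with TMM scaling, and 0.16 and 0.14 with totals without the upper 0.3% quantile.

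In CPM, the largest differences between somatic libraries were nearly 2-fold and mostly in 1 direction. Which genes come first, and how many go each way, rests in part on the scaling. With DESeq2's size factors the median log2 ratio of all members was 0.08, against 0.23 in CPM. Vocar20010683m.g had 2992 and 7061 somatic reads (log2 ratio of CPM 0.96), Vocar.0004s0273 had 4111 and 9582 (0.95), Vocar.0030s0071 had 3383 and 7824 (0.94), Vocar.0001s0063 had 2612 and 5708 (0.85) and Vocar.0041s0006 had 15979 and 32420 (0.75). Only Vocar.0059s0041 went the other way among these 6, with 25069 and 17970 (-0.75). The same genes had 27 and 25, 22 and 22, 44 and 36, 38 and 25, 17 and 15, and 16 and 25 reads in gonidial libraries 1 and 2. Their low somatic library was still 73.5 times or more above the high gonidial library in CPM in each case.

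In the gonidial libraries the members had fewer reads, at a median of 110 per gene over both libraries together. Their typical difference between libraries was still like that of the somatic libraries, where its median size was 0.29. The median log2 ratio of library 2 over 1 was -0.10, the median size 0.28, and 5 of 134 members differed by more than 2-fold (Vocar.0005s0194, with 20 and 61 reads, and Vocar.0027s0047, with 78 and 29, by the most; chosen after their values were seen). Other genes with between 48.5 and 279.8 gonidial reads, the middle of the members' range, had a median size of 0.31 (n = 4880) and 2.97% of them differed by more than 2-fold. The listed flagella genes within the limits had a median log2 ratio of -0.26, and all tested genes -0.22. With TMM scaling the median of the members became 0.11 and that of all tested genes -0.01, so the direction of the members' median rests on the scaling. A scaling moves all genes by the same amount, and the members' median lies 0.12 above that of all tested genes under any of them.

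**Figure D3:**
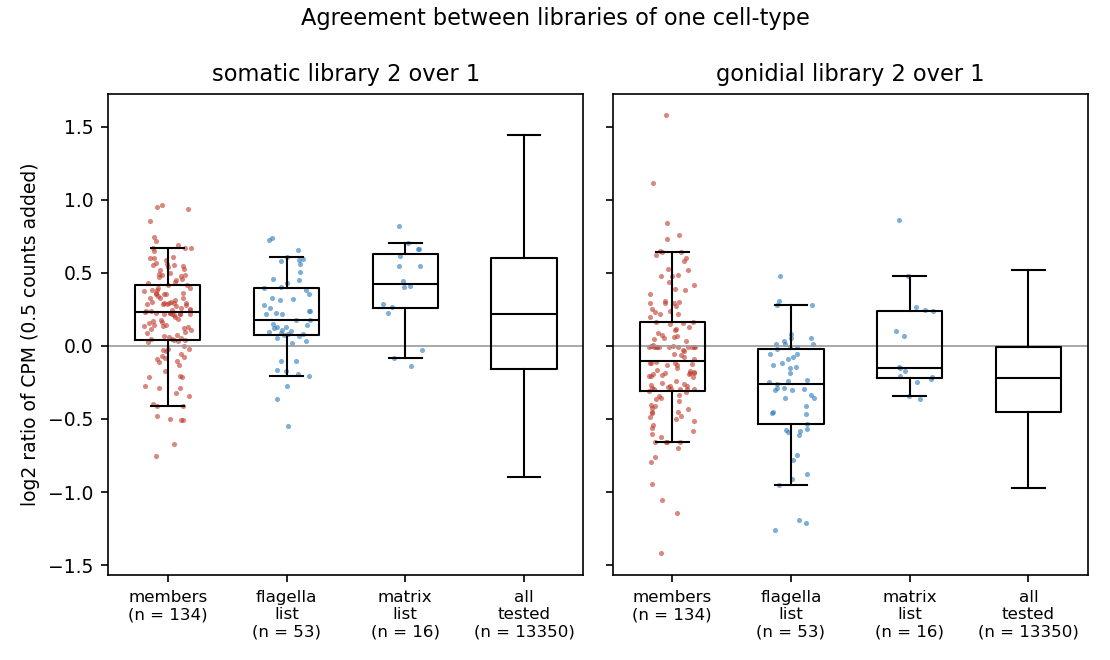
Log2 ratio of CPM of library 2 over library 1 for somatic cells (left) and gonidia (right), with 0.5 counts added. Boxes span the 25th to 75th percentiles with the median as a line, whiskers the 5th to 95th percentiles, and points are single genes of the members, the listed flagella genes and the listed matrix genes. Members stay within 2-fold between the somatic libraries, from -0.75 to 0.96, and reach from -1.42 to 1.58 between the gonidial libraries.

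The 129 with a position lay on 46 scaffolds, 20 of which held a single member, and scaffold 1, with 1811 gene models the largest of these, held 14. Locus numbers next to each other, that is, differing by 1 on a scaffold, were found for 8 members (6.202% of 129), in 4 pairs. Of all 14247 version 2.1 gene models, 1.79% were next to a member. The share was thus higher among the members than among all gene models, and was not tested, and the other 121 members with a position had no member beside them. Among the 71 listed genes within the limits, 4 were next to another of them.

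The adjacent pairs had like levels or differed many-fold. Vocar.0059s0038 and Vocar.0059s0039, already described, differed 8.76-fold in somatic CPM, both had under 50 reads in each gonidial library, and Vocar.0059s0041, with 16 and 25 gonidial and 25069 and 17970 somatic reads, lay just beyond. The locus between them, Vocar.0059s0040, had 1 and 0 reads in gonidia and 557 and 966 in somatic cells, below the limit of 300 CPM, and was itself somatic-specific (edgeR log2 fold change 10.07, adjusted p = 1.88e-12). The locus after the third member, Vocar.0059s0042, had 5 and 7 gonidial and 353 and 528 somatic reads and was somatic-specific too (log2 fold change 5.99, adjusted p = 2.37e-11, edgeR). The unbroken run of somatic-specific loci was thus 5 long. Vocar.0059s0037 before it was gonidial-specific, with 79 and 65 gonidial and 1 and 2 somatic reads (log2 fold change -5.63, adjusted p = 1.78e-08, edgeR), and Vocar.0059s0043 after it had 2 and 2 gonidial reads, none in somatic cells, and was not tested. Beyond that untested locus, Vocar.0059s0044, Vocar.0059s0045 and Vocar.0059s0046 were somatic-specific again (log2 fold changes 3.74, 4.17 and 2.58, edgeR), so somatic-specific loci did not end with the run. Of these, Vocar.0059s0045 had the most reads, 129 and 121 in gonidia and 1721 and 3469 in somatic cells. The non-members around the run were added after their values were seen. Unlike Vocar.0059s0040 and Vocar.0059s0042, whose log2 ratios of somatic library 2 over 1 were 0.52 and 0.31, the 3 members of this run were lower in somatic library 2, at -0.40, -0.34 and -0.75.

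Vocar.0015s0088 (184 and 171 gonidial reads, 20602 and 27389 somatic) lay beside Vocar.0015s0089, and their ratios were 131 and 120. Vocar.0001s1344 (16 and 13 against 8862 and 10298) lay beside Vocar.0001s1345 (39 and 23 against 20653 and 17887), with ratios of 642 and 612. Vocar.0026s0097 (243 and 267 against 6880 and 12680) lay beside Vocar.0026s0098 (82 and 119 against 4834 and 9311), with ratios of 36.5 and 66.9. In the first and second of these pairs the 95% counting intervals of the partners' ratios overlapped, and in the third they did not.

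Another 3 pairs were separated by a single locus: Vocar.0059s0039 and Vocar.0059s0041, Vocar.0003s0103 and Vocar.0003s0105, and Vocar.0070s0007 and Vocar.0070s0009. The locus between the pair on scaffold 3, Vocar.0003s0104, had 46 and 47 gonidial and 2239 and 3246 somatic reads and was somatic-specific as well (log2 fold change 5.70, adjusted p = 6.45e-13, edgeR). The locus between the pair on scaffold 70 was not: Vocar.0070s0008 had 388 and 293 gonidial and 303 and 353 somatic reads (log2 fold change -0.21, adjusted p = 0.426, edgeR), so the most read somatic gene of the set has a neighbour with like reads in both cell-types. On its other side Vocar.0070s0006, added after its values were seen, was somatic-specific. It had 70 and 69 gonidial and 989 and 1020 somatic reads (log2 fold change 3.70, adjusted p = 2.38e-10, edgeR). Over the 7 pairs, partners differed by a median of 0.07 in the log2 ratio of somatic library 2 over 1, against 0.30 over all pairs of members, and by 0.46 in that of gonidial library 2 over 1, against 0.39. Reads were assigned to gene models from a library whose strand is not stated, so transcription running on from one model into the next cannot be told apart from separate transcripts.

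Genes lying next to the members but outside the set were not chosen by the rule, and most were not somatic. Loci that were themselves members, 8 at this distance, were left out here, whereas all tested genes include the members. This lowers the somatic share of the neighbours beside that of all tested genes. Of the 247 neighbours outside the set, 230 were tested. Of these, 73 (31.7%) were at least 2-fold higher in somatic cells by edgeR, against 26.0% of all tested genes, and 90 (39.1%) were at least 2-fold higher in gonidia, against 46.7% of all tested genes. Their median log2 fold change was -0.38, with 25% under -2.24 and 25% over 1.68, against -0.85 for all tested genes. The direction of this median rests on the scaling: with TMM it was 0.27 against -0.18, and 38.3% of the neighbours were somatic and 30.0% gonidial, against 33.0% and 36.8% of all tested genes. At a distance of 2 locus numbers the somatic share was 22.6% and the median -0.95, at 3 it was 25.2% and -0.75, at 4 it was 25.1% and -0.61, and at 5 it was 29.9% and -0.42. The values did not move in 1 direction with distance. The somatic share next to the listed genes within the limits was 35.5% of 121 tested loci.

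**Figure D4:**
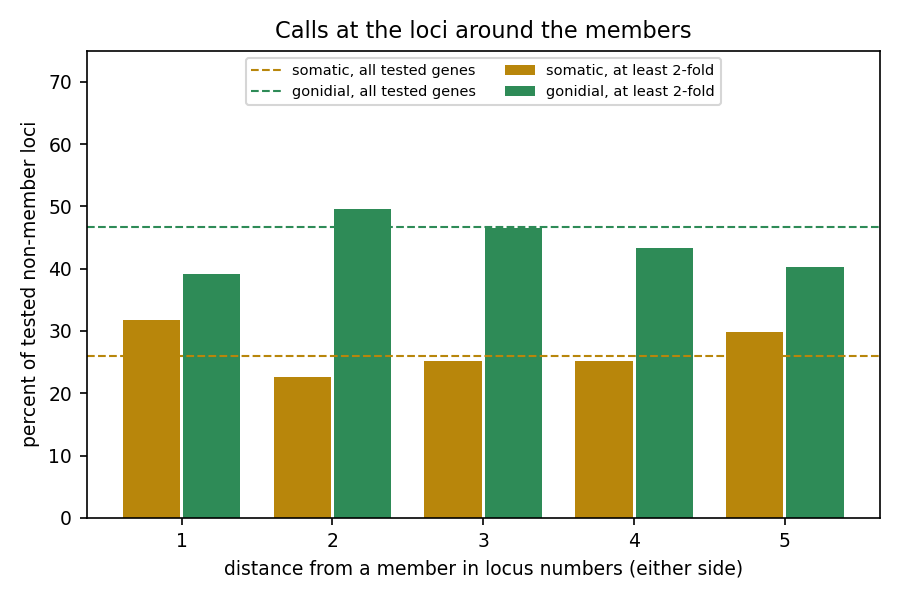
Percent of tested loci, other than members, that edgeR called at least 2-fold higher in somatic cells (ochre bars) or in gonidia (green bars), by distance from a member in locus numbers on either side, where a locus near several members is counted at each distance. Dashed lines are the same percents over all 13350 tested genes, members included, 26.0% and 46.7%. Somatic bars run from 22.6% at a distance of 2 to 31.7% next to a member. Gonidial bars run from 39.1% next to a member to 49.6% at a distance of 2.

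Steep changes between neighbours were found too. Vocar.0030s0169, among the most read members, lies beside Vocar.0030s0168, which had 770 and 568 reads in gonidia and 6 and 3 in somatic cells (log2 fold change -7.33, adjusted p = 3.56e-12, edgeR). Beside Vocar.0005s0391 lies Vocar.0005s0390, with 196 and 159 gonidial reads and 0 and 2 somatic reads (log2 fold change -7.46, adjusted p = 2.63e-10, edgeR). These non-members were chosen after their values were seen.

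Of the 129 members with a position, 14 lay next to a gene on a study list. Listed genes were 4.05% of all gene models, and a locus can have a neighbour on either side. The share of all loci next to a listed gene was not computed, so nothing is read from this count. Of the 4 ECM neighbours, 3 were somatic-specific and 1 gonidial-specific. Over all 54 tested genes of the ECM list these shares were 66.7% and 9.26%, against 16.9% and 29.1% of all tested genes, and with so few neighbours nothing is read from their direction. Vocar.0016s0020 (286 and 288 gonidial reads, 16443 and 23174 somatic) lies beside *lsg1* (7 and 6 against 5784 and 8183), a listed matrix gene. Vocar.0016s0062 (106 and 126 against 10295 and 14451) lies beside the locus of *vmp10* and *vmp30* (89 and 125 against 10434 and 15393), of the matrix metalloprotease family, and the reads of these neighbours were nearly equal in every library. Vocar.0003s0418 (102 and 144 against 25081 and 43480) lies beside *vmp39* (110 and 96 against 18866 and 33321), of the same family.

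The fourth ECM neighbour was higher in gonidia. Vocar.0024s0152 had 515 and 461 gonidial and 22134 and 35180 somatic reads, and the pherophorin gene *phV23* beside it had 5327 and 4561 gonidial and 520 and 631 somatic reads (log2 fold change -3.27, adjusted p = 9.96e-11, edgeR). The flagella list gave 1 neighbour: Vocar.0001s0403 (159 and 160 against 3738 and 4125) lies beside the gene for the outer dynein arm light chain LC4 (17 and 28 against 731 and 820), which was somatic-specific (log2 fold change 4.94, adjusted p = 3.98e-11, edgeR), as were 72.7% of the 198 tested genes of that list.

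Of the 6 carbon metabolism neighbours, none was higher in somatic cells by the test, and 3 were gonidial-specific, as were 28.4% of the 141 tested genes of that list. Vocar.0028s0005 (29 and 24 gonidial, 5180 and 8772 somatic reads) lies beside the pyruvate kinase gene *PYK1*, which makes pyruvate in glycolysis and had 8191 and 6673 gonidial against 299 and 635 somatic reads (log2 fold change -4.20, adjusted p = 3.10e-11, edgeR). Vocar.0017s0056 (225 and 339 against 5895 and 6691) lies beside *GAP2*, a glyceraldehyde 3-phosphate dehydrogenase gene, with 727 and 696 against 40 and 56 (-4.06, adjusted p = 8.50e-11, edgeR). Vocar.0026s0110 (115 and 91 against 3162 and 4895) lies beside *BCC1*, for the biotin carrier of acetyl-CoA carboxylase in fatty acid synthesis, with 3230 and 3116 against 261 and 542 (-3.19, adjusted p = 1.07e-09, edgeR).

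The other neighbours on lists were not called or had few reads. Vocar.0041s0006 lies beside the starch synthase gene *SSS4* (1031 and 781 gonidial, 440 and 683 somatic reads), Vocar.0009s0047 (152 and 134 against 4445 and 8651) beside the hexokinase gene *HXK1* (102 and 70 against 70 and 88), and Vocar.0031s0008 (55 and 41 against 2902 and 4913) beside *GAP1*, another glyceraldehyde 3-phosphate dehydrogenase gene (3095 and 2977 against 2646 and 2583). Vocar.0001s0212 (150 and 134 against 5542 and 8149) lies beside *CCS1*, of cytochrome assembly (104 and 94 against 81 and 93). Vocar.0003s0510 (230 and 232 against 5718 and 4865) lies beside *rlsE*, a gene of the *regA* family (725 and 585 against 982 and 1288). Vocar.0009s0176 (53 and 38 against 6175 and 10209) lies beside the autophagy gene *ATG7*, which had 7 and 6 gonidial and 1 and 0 somatic reads and was called gonidial-specific on these few reads (adjusted p = 0.0046, edgeR).

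The limits of the set were drawn through a continuous range. Just inside 300 CPM in somatic cells were Vocar.0014s0093 (302 CPM), Vocar.0032s0039 (302 CPM, 11 and 11 gonidial against 2997 and 4294 somatic reads) and Vocar.0020s0021 (304 CPM, 3 and 5 against 2955 and 4399), and just outside were Vocar.0008s0303 (299.4 CPM), Vocar.0006s0361 (296.6 CPM) and Vocar.0003s0019 (296.5 CPM). Just inside 16 times were Vocar.0006s0063, Vocar.0004s0134 and Vocar.0030s0169, and just outside were Vocar.0007s0413 (15.5), Vocar.0002s0441 (15.3) and Vocar.0007s0229 (15.1). The last, with 5631 and 5278 gonidial and 76235 and 94020 somatic reads, would have been the third most read member.

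With at most 3 reads in each gonidial library, 3 genes at the required levels were left out: Vocar.0032s0089 (3 and 3 gonidial, 5185 and 4786 somatic reads), Vocar.0006s0086 (3 and 1 against 4182 and 3481) and Vocar.0083s0016 (1 and 1 against 2623 and 5435). Just inside were Vocar.0014s0253, Vocar.0020s0021 and Vocar.0001s1693, the last with 5 and 5 gonidial and 4772 and 7062 somatic reads. At such depths a gonidial level of these genes cannot be told from that of the genes left out.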

How the data were processed

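The deposited values are whole-number counts of reads per gene model, without normalization. The authors trimmed 50 bp single-end reads with Trimmomatic, aligned them with STAR to the version 2 assembly and assigned uniquely mapped reads with HTSeq to merged version 2.1 and 2.0 gene models. Reads shared by near-identical copies were thus not counted, and the strand setting is not given in the sources used here. The replicate libraries came from separate cultures, n = 2 per cell-type.

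CPM used plain totals (11583555, 11650101, 10838222 and 13104583), at which 3 counts equal 0.259, 0.258, 0.277 and 0.229 CPM in gonidial 1 and 2 and somatic 1 and 2. Log2 ratios between libraries have 0.5 counts added. For edgeR's quasi-likelihood test, library sizes were totals after removal of the upper 0.3% quantile, genes without counts and then the lowest 10% by mean normalized count were left out, and p-values were adjusted by Benjamini-Hochberg over 13350 genes. Called genes changed at least 2-fold at an adjusted p under 0.05, and specific genes over 5-fold. The steps were tested on simulated data.

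The members and lists were chosen with earlier results of these data known. From the study's tables only the identifiers of listed genes, and the symbols and descriptions of those named, were taken, and no values. Genes named are the 12 with most somatic reads, the 6 highest and 6 lowest ratios, the 6 largest differences between somatic libraries, the 3 highest gonidial levels, members next to a member or a listed gene, and the 3 genes on each side of each limit, with others marked as chosen later. Gene names, lengths and sequences of members are not used here, since the reference table, of another assembly, does not pair with these identifiers.

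Alternatives were other scalings, limits, filters, the DESeq2 Wald test, the replicate number as a term and each library left out. The software was edgeR 4.0.16 and DESeq2 1.42.0 in R 4.3.3, and scipy 1.17.1, pandas 2.3.3, numpy 2.4.6 and matplotlib 3.10.9 in Python 3.11.15.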

Additional observations from a re-analysis of the deposited data

How the results depend on the processing

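All 134 members were called somatic-specific under each alternative with all 4 libraries (the DESeq2 Wald test, TMM, plain totals, DESeq2 size factors, no filter, filterByExpr and the replicate block). The limits of the rule make this all but certain, so nothing is read from it. Of all 13350 tested genes, 2180 were somatic-specific with the DESeq2 Wald test, 2368 with plain totals, 2856 with TMM and 2912 with DESeq2 size factors. Without a filter 2285 of 14834 were, and with filterByExpr 2118 of 12356. The number of members was 267 at a limit of 150 CPM and 54 at 600 CPM, and it lay between 111 and 200 under other scalings, ratios of 8 or 32 and the lowest somatic against the highest gonidial library. With each library left out in turn it was 123 to 150, sharing 116 to 132 genes with the set. The median log2 fold change of the members was 7.52 with TMM and 7.57 with DESeq2 size factors, where all tested genes had medians of -0.18 and -0.13, and relative to these the members stood at 7.70 in both against 7.72. It was 6.74 to 6.94 with each library left out. With TMM the median of genes next to members reversed, from -0.38 to 0.27, but was 0.45 above that of all tested genes against 0.47. In the main fit, without TMM, genes 2 locus numbers away had a median of -0.95. Of all tested genes, 3471 rose in somatic cells and 6233 in gonidia, against 4405 and 4916 with TMM. The share of the members was 15.5% as a mean of the somatic libraries, 21.4% of the counts left after removal of the upper quantile, and 13.0% without Vocar.0070s0007, an alternative chosen after seeing the data, and the first change took the gonidial share from 0.192% to 0.287%. Members near another member numbered 13 at most 2 and 19 at most 5 locus numbers apart, and 24 of 267 at 150 CPM.

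Replicate numbers did not pair the libraries, which came from separate cultures and whose deviations had a correlation of -0.08 across genes. With the replicate block 134 members were called, the median log2 fold change was 6.82, and 2248 genes in all were somatic-specific against 2250. Depth limits the gonidial values of the 14 members with fewer than 10 reads in each gonidial library.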
